A study of Mus musculus with 34 samples.

Results

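The 31 genes described here are members of the hepatic acute phase and inflammatory response, chosen by name from a list and found by the gene name that the array files give to their probes. They were measured by 37 probes, 1 for most genes, and all 31 passed the filter on dim probes, among 15882 named genes tested. Ltf passed only through KO vehicle mice, the group where it was high. They were measured in the livers of 34 male C57Bl/6J mice, each array holding Cy3-labelled RNA of 1 mouse. The study set mice without the nuclear receptor PPARA, either in the whole body (KO) or in the liver (LKO), against wild-type mice (WT) and liver wild-type mice (LWT), with and without the PPARA agonist fenofibrate.

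All mice were 14 weeks old and ate chow. They received fenofibrate at 100 mg/kg/day, or its vehicle of 3% gum arabic in water, by gavage once a day for 10 days, and livers were taken at zeitgeber time 14. On vehicle there were 4 WT, 4 LWT, 4 LKO and 3 KO mice, and on fenofibrate 4 WT, 5 LWT, 5 LKO and 5 KO mice. The labels do not name the allele or the driver of the liver deletion. A level below is the log2 signal of a gene's brightest probe relative to the 75th percentile of its array, so levels of different genes are not compared. Values are listed in the order of the mouse numbers in the labels, and a change is a difference of group means on the log2 scale with its standard error (SE).

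The acute phase response is the change in liver secretion that follows infection or injury. Interleukin 6 acts through its receptor and the transcription factor STAT3, and interleukin 1 acts through NF-kB and C/EBP factors, to raise the output of serum amyloid A, orosomucoid, haptoglobin and related plasma proteins. PPARA is known to restrain this response in liver, besides its role in driving fatty acid oxidation during fasting.

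Depth and labels were checked on the whole array. Between 28188 and 35167 probes were well above background on an array (50.6% to 63.2%), no spot was saturated, and mice of a group correlated between 0.979 and 0.995. Ppara itself was lower in KO than in WT mice on vehicle by a log2 change of -1.68 ± 0.17, and lower in LKO than in LWT mice by -0.91 ± 0.15. Cd36, which responds to PPARA agonists, rose with fenofibrate by 3.60 in WT and 3.87 in LWT mice and moved by -0.07 in LKO and 0.09 in KO mice. The liver markers Alb and Ttr were well above background on every array. The libraries that stand apart are given here before the results. KO vehicle mouse 1 had the lowest array weight, 0.219, and the 3 arrays of slide 1 (WT vehicle 1, KO vehicle 1 and KO fenofibrate 1) had the 3 lowest weights. KO vehicle mice 2 and 3 had the next lowest, 0.482 and 0.597. The lowest correlation within a group, 0.979, was also in KO vehicle mice.

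Upstream sequences are shown for the pairs whose members moved most closely together. RefSeq promoter windows (build GRCm38.p6) were found for 26 of the 31 genes, and not for Trf, Orm1, Cd14, Lbp and Hp. Saa1 (chr7:46742981-46743230, minus strand) and Saa2 (chr7:46751583-46751832, plus strand) lie head to head, and their 250 bases upstream of the start site were identical at 238 of 249 aligned bases (95.6%). Capitals mark the 11 bases that differ and the 1 unpaired base in each sequence, and both are written 5′ to 3′ toward the gene.
Saa1: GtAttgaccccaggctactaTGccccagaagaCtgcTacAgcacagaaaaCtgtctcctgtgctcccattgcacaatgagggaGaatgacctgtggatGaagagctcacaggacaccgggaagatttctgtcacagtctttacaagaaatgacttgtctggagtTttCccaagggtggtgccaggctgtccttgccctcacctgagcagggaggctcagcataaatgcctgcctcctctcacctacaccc
Saa2: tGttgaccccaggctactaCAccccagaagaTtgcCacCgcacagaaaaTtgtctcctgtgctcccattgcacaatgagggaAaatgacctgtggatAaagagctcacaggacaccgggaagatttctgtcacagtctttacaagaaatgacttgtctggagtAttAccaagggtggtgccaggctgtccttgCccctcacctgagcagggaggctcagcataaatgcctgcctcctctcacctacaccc
The metallothionein genes Mt1 (chr8:94178839-94179088) and Mt2 (chr8:94172368-94172617) are both on the plus strand. Capitals mark a match on either strand to TGCACNC, a form of the core of the metal response element. Other forms of the core were not searched for and are not marked.
Mt1: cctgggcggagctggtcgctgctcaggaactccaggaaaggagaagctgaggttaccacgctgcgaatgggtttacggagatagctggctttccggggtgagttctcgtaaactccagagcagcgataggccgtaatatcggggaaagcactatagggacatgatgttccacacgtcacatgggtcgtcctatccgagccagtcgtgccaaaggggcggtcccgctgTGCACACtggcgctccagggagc
Mt2: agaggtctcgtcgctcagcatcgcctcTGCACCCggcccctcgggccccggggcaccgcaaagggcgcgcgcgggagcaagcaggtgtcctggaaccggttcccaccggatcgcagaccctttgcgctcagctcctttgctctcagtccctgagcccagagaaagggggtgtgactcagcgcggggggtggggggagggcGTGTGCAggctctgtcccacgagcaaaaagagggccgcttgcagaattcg

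Each window was the 250 bases upstream of a start site, searched on both strands. A match to these letters describes the window and shows no bound factor. The form TGCACNC of the metal response core was found in the windows of Mt1, Mt2 and Orm3, and in 10.4% of all 32851 windows. A C/EBP-type motif, TTGCNNAA, was found in 14 of the 26 genes with a window, against 9.56% of all windows. These were Saa1, Saa2, Saa3, Saa4, Orm2, Orm3, Hpx, Cp, Lcn2, Ltf, Il1r1, S100a9, Steap4 and Mt2. A STAT-type motif, TTCNNNGAA, was found for 5 genes (Apcs, Hamp, Itih4, Socs3 and Steap4), against 7.02% of windows, and the NF-kB consensus for Il1r1 and Steap4, against 3.90% of windows. No test was run on these shares.

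Between KO and WT mice on vehicle, 24 of the 31 acute phase genes were higher in KO mice and none lower. Ltf, which passed the filter through KO vehicle mice alone, is among the 24. Of all genes, 30.0% were called in that comparison and 13.9% were called as higher, at a limma p adjusted by Benjamini-Hochberg below 0.05 over the 15882 genes. The median change of the members was 1.44, against -0.03 for all genes, and the groups did not overlap for 24 members, against 27.3% of all genes. On fenofibrate, 24 members were again higher in KO than in WT mice and 1, Il1rn, was lower, where 43.2% of all genes were called (21.2% higher, 22.0% lower). The median was then 1.16 and the groups did not overlap for 21 members, against 34.6% of all genes.

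Loss of PPARA in the liver moved fewer of these genes. On vehicle, Orm3 was the 1 member called between LKO and LWT mice, where 6.10% of all genes were called, although 27 of the 31 changes were above 0 and their median was 0.40. Without LKO vehicle mouse 1 the count was 2. The groups did not overlap for 2 members, Orm3 and Stat3, against 13.6% of all genes. On fenofibrate, 10 members were higher in LKO than in LWT mice and Il1rn was lower, where 36.5% of all genes were called (18.2% higher, 18.3% lower), and 7 members did not overlap, against 29.1% of genes.

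Fenofibrate lowered more acute phase genes than it raised in mice with PPARA. In WT mice 7 members fell and 2 rose (Il1rn and Orm3), where 11.3% of all genes fell and 10.1% rose. In LWT mice 9 fell and 2 rose (Il1rn and Lbp), where 7.81% of all genes fell and 10.0% rose, and the total of 11 was 7 without LWT fenofibrate mouse 4. The groups did not overlap for 11 members in WT mice (27.0% of all genes) and for 8 in LWT mice (18.6%). In LKO mice limma called none of the members and 0.00% of genes, with 10 of 31 members and 921 of 15882 genes at an unadjusted p below 0.05, and 4 members did not overlap, against 3.29% of genes. In KO mice it called none of the members and 0.0126% of genes, with 6 of 31 members and 1883 of 15882 genes at an unadjusted p below 0.05. The median change was -0.41 in both LKO and KO mice, with 27 and 25 of the 31 members below 0. It was -0.24 in WT and -0.32 in LWT mice, with 20 and 22 members below 0. Comparisons that share a group share its mice, so their counts are not independent.

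WT and LWT mice, which both carry PPARA, did not differ in any member on vehicle or on fenofibrate by limma. Of all genes, 0.900% and 0.529% were called. At an unadjusted p below 0.05 there were 5 and 3 of 31 members, against 1968 and 1571 of 15882 genes. In both comparisons 24 of the 31 changes were below 0, with medians of -0.23 and -0.19. Members without overlap numbered 3 on vehicle and 2 on fenofibrate, against 7.94% and 5.00% of genes.

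**Figure D1:**
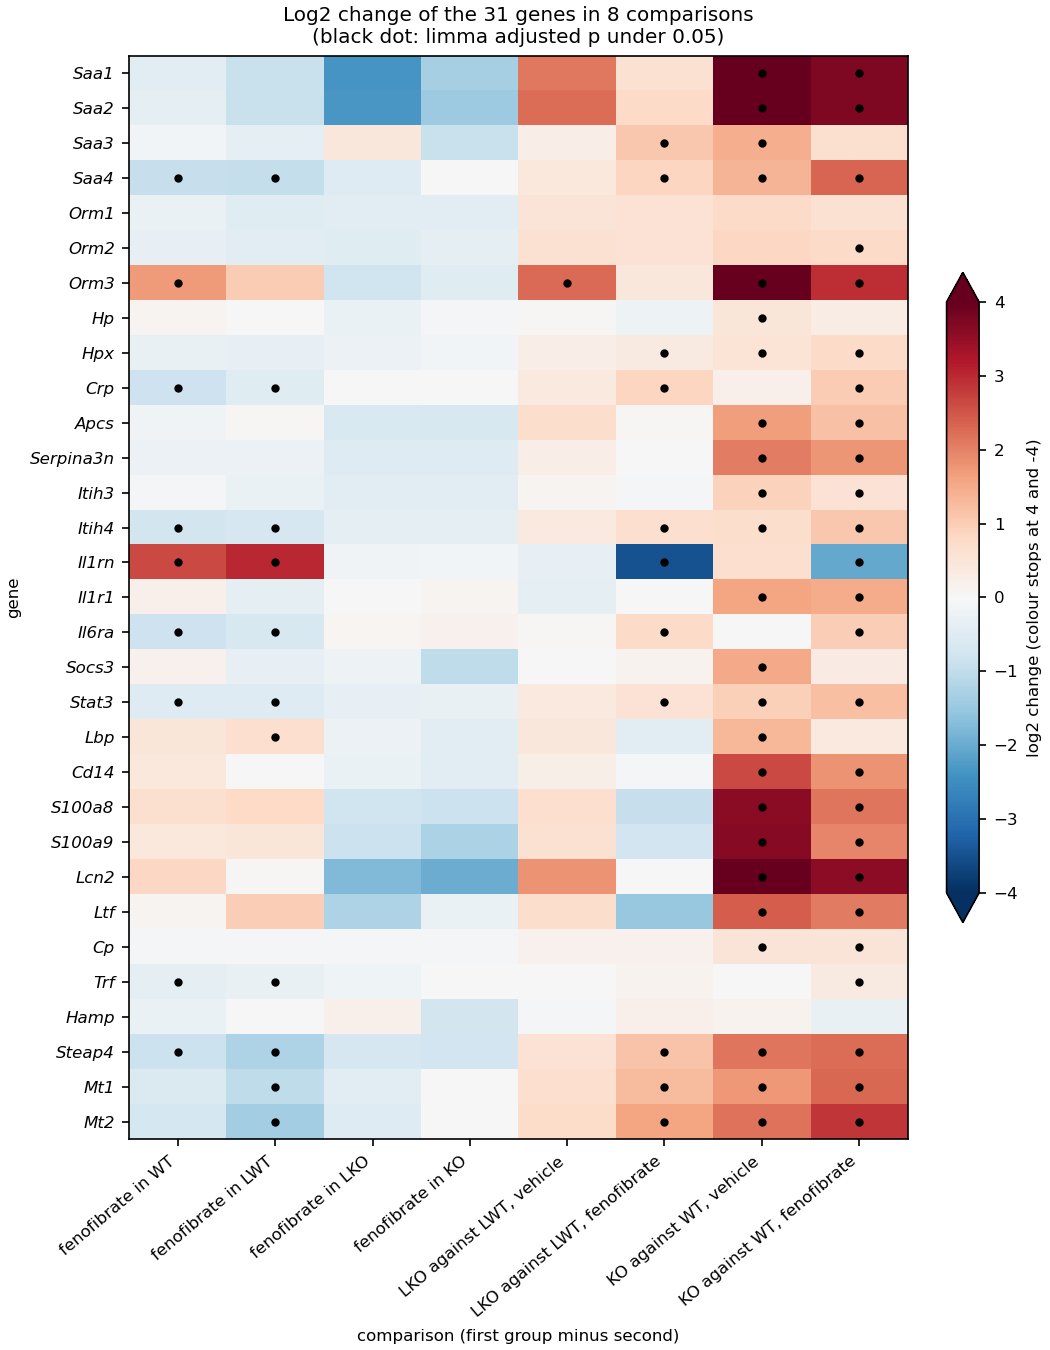
Log2 change of each of the 31 genes (vertical axis, by role) in each comparison of groups (horizontal axis), with calls at an adjusted p below 0.05 marked. The columns of KO against WT mice hold the most calls, 24 higher on vehicle, and Il1rn alone was called as rising with fenofibrate in both WT and LWT mice.

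Serum amyloid A proteins are apolipoproteins of high density lipoprotein, of which Saa1 and Saa2 are the liver's main acute phase forms, Saa3 is made largely outside hepatocytes and Saa4 is the constitutive form. All 4 were higher in KO than in WT mice on vehicle, and 3 of them on fenofibrate, beside 13.9% and 21.2% of all genes. Saa1 read 5.73, 5.01, 4.53 and 6.39 in WT, 7.66, 6.90, 5.52 and 5.14 in LWT, 7.26, 10.29, 7.92 and 8.18 in LKO and 10.71, 9.60 and 9.82 in KO mice on vehicle. On fenofibrate Saa1 read 6.19, 4.52, 4.42 and 4.88 in WT, 4.16, 4.34, 8.67, 4.10 and 5.84 in LWT, 5.79, 8.14, 5.21, 5.60 and 5.47 in LKO and 8.49, 7.76, 10.42, 9.85 and 7.11 in KO mice. All 3 KO vehicle mice lay above every WT vehicle mouse, and LWT fenofibrate mouse 3 and LKO fenofibrate mouse 2 lay well above the others of their groups. Saa1 was 24.7-fold higher in KO than in WT mice on vehicle, a change of 4.63 ± 0.93 (adjusted p = 0.000391), and higher by 3.72 ± 0.82 (adjusted p = 0.000479) on fenofibrate. The LKO vehicle mean of Saa1 lay between the WT and KO means, with LKO vehicle mouse 2 inside the KO range, and its change against LWT mice of 2.11 ± 0.86 (adjusted p = 0.182) did not pass. The change of Saa1 with fenofibrate was -2.37 ± 0.82 (adjusted p = 0.693) in LKO and -1.32 ± 0.89 (adjusted p = 0.582) in KO mice, neither of them called. Without KO vehicle mouse 1 the change between KO and WT mice on vehicle was 4.30.

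Saa2 read 5.27, 4.60, 4.03 and 5.99 in WT, 7.19, 6.60, 5.13 and 4.71 in LWT, 7.02, 9.95, 7.68 and 7.88 in LKO and 10.51, 9.40 and 9.50 in KO mice on vehicle. On fenofibrate Saa2 read 5.84, 4.25, 3.86 and 4.54 in WT, 3.72, 3.86, 8.37, 3.70 and 5.50 in LWT, 5.67, 7.96, 5.01, 5.29 and 5.12 in LKO and 8.08, 7.39, 10.09, 9.51 and 6.68 in KO mice. Saa2 had the same order of mice as Saa1 in every group, with the same mice far above their groups. It was higher in KO than in WT mice by 4.83 ± 0.95 (adjusted p = 0.000310) on vehicle and 3.73 ± 0.84 (adjusted p = 0.000603) on fenofibrate. Saa1 and Saa2 transcripts are near-identical, and whether each probe measured its own transcript alone was not tested.

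**Figure D2:**
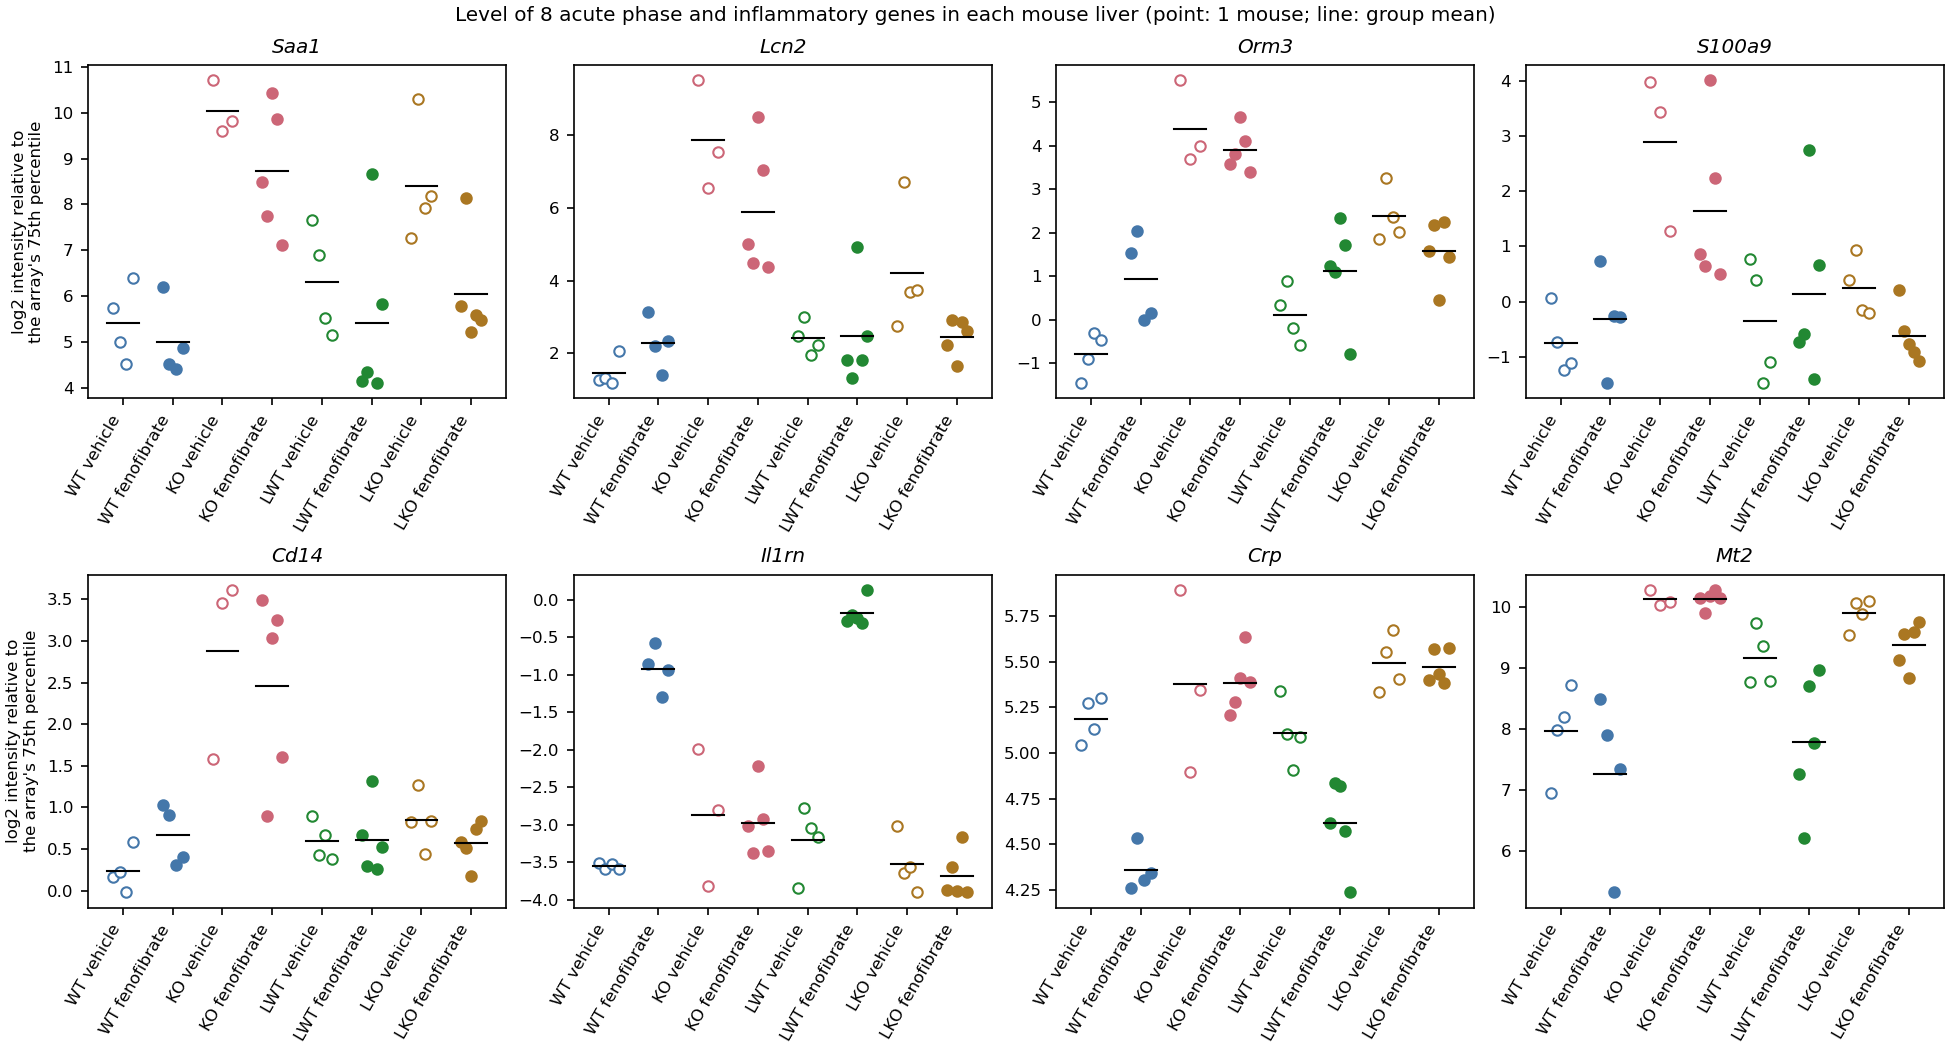
Level of selected members (log2 relative to the array's 75th percentile, vertical axis) in each mouse (points) of the 8 groups (horizontal axis), with group means as lines. The 3 KO vehicle mice lie at 9.60 to 10.71 for Saa1, above all WT mice at 4.42 to 6.39, and Il1rn is high only in WT and LWT mice on fenofibrate.

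Saa3 read 1.27, 1.44, 1.07 and 1.03 in WT, 0.91, 1.12, 1.24 and 1.64 in LWT, 1.75, 1.90, 0.87 and 1.45 in LKO and 3.13, 1.92 and 2.88 in KO mice on vehicle. On fenofibrate Saa3 read 1.78, 0.81, 0.90 and 0.90 in WT, 0.68, 0.22, 1.09, 0.42 and 1.88 in LWT, 2.39, 1.82, 1.76, 1.88 and 1.81 in LKO and 1.38, 1.27, 1.86, 2.21 and 1.96 in KO mice. KO vehicle mice were the highest group and did not overlap with WT vehicle mice, and KO and WT mice overlapped on fenofibrate. Saa3 was higher by 1.44 ± 0.33 (adjusted p = 0.00121) in KO mice on vehicle, and its difference on fenofibrate of 0.64 ± 0.29 (adjusted p = 0.0709) did not pass. It was also higher in LKO than in LWT mice on fenofibrate, by 1.07 ± 0.27 (adjusted p = 0.00212), with 1 LWT mouse inside the LKO range.

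Saa4 read 5.37, 5.47, 5.74 and 5.73 in WT, 5.90, 6.46, 6.07 and 5.69 in LWT, 5.67, 6.90, 6.61 and 6.59 in LKO and 7.05, 6.97 and 6.80 in KO mice on vehicle. On fenofibrate Saa4 read 4.83, 4.28, 4.62 and 4.89 in WT, 5.37, 4.96, 5.06, 4.92 and 5.04 in LWT, 5.77, 5.75, 5.52, 6.21 and 6.35 in LKO and 6.81, 6.90, 7.48, 7.04 and 6.62 in KO mice. Every WT and LWT mouse on fenofibrate lay below every mouse of its genotype on vehicle, and every KO mouse lay above every WT mouse. Fenofibrate lowered Saa4 by 0.92 ± 0.22 (adjusted p = 0.00224) in WT and by 0.96 ± 0.20 (adjusted p = 0.00114) in LWT mice, and the changes were -0.52 ± 0.20 (adjusted p = 0.797) in LKO and 0.03 ± 0.22 (adjusted p = 0.973) in KO mice. Saa4 was higher in KO than in WT mice by 1.36 ± 0.23 (adjusted p = 5.64e-05) on vehicle and 2.31 ± 0.20 (adjusted p = 1.63e-10) on fenofibrate, and in LKO than in LWT mice on fenofibrate by 0.85 ± 0.19 (adjusted p = 0.000772). The response of WT minus that of KO mice was -0.95 ± 0.31 (adjusted p = 0.0439), and that call was lost with array weights, the 4 highest mice left out, no filter on dim probes, normexp background correction, replicate block, slide as a block and the authors' value table (adjusted p from 0.0593 to 0.142), and without any 1 of 11 mice (adjusted p up to 0.104).

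The other acute phase plasma proteins include the orosomucoids (alpha-1-acid glycoproteins, which bind drugs and lipids), haptoglobin and hemopexin (which bind free haemoglobin and haem), the pentraxins Crp and Apcs, the protease inhibitor Serpina3n and the inter-alpha-trypsin inhibitor heavy chains Itih3 and Itih4. Of these 10 genes, 7 were higher in KO than in WT mice on vehicle and 8 on fenofibrate, beside 13.9% and 21.2% of all genes. Orm3 read -1.46, -0.90, -0.31 and -0.46 in WT, 0.33, 0.89, -0.19 and -0.59 in LWT, 1.86, 3.26, 2.36 and 2.02 in LKO and 5.50, 3.69 and 3.98 in KO mice on vehicle. On fenofibrate Orm3 read 1.53, 2.04, -0.01 and 0.16 in WT, 1.24, 1.10, 2.33, 1.71 and -0.79 in LWT, 1.59, 2.18, 0.45, 2.25 and 1.44 in LKO and 3.57, 3.80, 4.65, 4.10 and 3.39 in KO mice. WT vehicle mice were all below 0, all KO mice were above 3, and LKO vehicle mice lay between with no overlap with LWT vehicle mice. Orm3 was 36-fold higher in KO than in WT mice on vehicle (5.17 ± 0.59 (adjusted p = 9.19e-08)) and higher by 2.97 ± 0.51 (adjusted p = 2.54e-05) on fenofibrate. Between LKO and LWT mice on vehicle it was higher by 2.26 ± 0.54 (adjusted p = 0.00762). Fenofibrate raised Orm3 in WT mice by 1.71 ± 0.54 (adjusted p = 0.0225), but that call was lost without any 1 of WT fenofibrate 1, WT fenofibrate 2, WT vehicle 1 and WT vehicle 2 (adjusted p up to 0.105). The change of Orm3 with fenofibrate in LWT mice was 1.01 ± 0.51 (adjusted p = 0.188).

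Orm2 read 7.17, 7.03, 7.01 and 7.21 in WT, 7.66, 7.50, 7.06 and 6.71 in LWT, 7.57, 8.33, 7.91 and 7.57 in LKO and 9.20, 7.06 and 7.54 in KO mice on vehicle. On fenofibrate Orm2 read 6.74, 7.07, 6.61 and 6.64 in WT, 6.72, 6.77, 7.52, 6.88 and 5.98 in LWT, 7.40, 7.54, 7.25, 7.25 and 7.33 in LKO and 7.45, 7.35, 8.19, 7.45 and 7.19 in KO mice. KO vehicle mouse 1 was more than 1 unit above every other KO mouse on vehicle, and KO fenofibrate mouse 3 stood above the rest of its group. Orm2 was higher in KO than in WT mice on fenofibrate by 0.76 ± 0.30 (adjusted p = 0.0380), a call lost with no filter on dim probes and slide as a block (adjusted p from 0.0581 to 0.105), and without any 1 of KO fenofibrate 3, KO fenofibrate 4, WT fenofibrate 1, WT fenofibrate 3 and WT fenofibrate 4 (adjusted p up to 0.118). On vehicle the difference in Orm2 was 0.83 ± 0.34 (adjusted p = 0.0639). Orm1, Orm2 and Orm3 are also near-identical copies, and whether each probe measured its own transcript alone was not tested. Orm1 was called in no comparison: its levels lay between 6.84 and 6.996 in WT vehicle mice and between 6.87 and 8.74 in KO vehicle mice, where KO vehicle mouse 1 was again the highest, and over all 34 mice they ranged from 5.91 to 8.74.

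Hp read 9.81, 9.67, 9.84 and 9.95 in WT, 9.75, 10.08, 10.12 and 9.88 in LWT, 9.79, 10.32, 9.86 and 10.07 in LKO and 10.57, 10.13 and 10.19 in KO mice on vehicle. On fenofibrate Hp read 9.99, 9.90, 9.77 and 10.04 in WT, 9.92, 9.68, 10.20, 10.05 and 9.82 in LWT, 9.54, 9.83, 9.96, 9.52 and 9.84 in LKO and 10.15, 10.11, 10.41, 10.39 and 9.99 in KO mice. Haptoglobin differed little, and KO vehicle mice lay just above WT vehicle mice. It was higher by 0.48 ± 0.14 (adjusted p = 0.0109), a call lost with array weights, the 4 highest mice left out and a fit of those groups alone (adjusted p from 0.0547 to 0.0847), and without KO vehicle 1 (adjusted p = 0.0892). Hpx read 9.75, 9.54, 9.61 and 9.75 in WT, 9.68, 10.003, 9.68 and 9.57 in LWT, 9.79, 10.31, 9.91 and 10.02 in LKO and 10.56, 9.97 and 10.12 in KO mice on vehicle. On fenofibrate Hpx read 9.47, 9.19, 9.35 and 9.45 in WT, 9.20, 9.13, 9.85, 9.29 and 9.57 in LWT, 9.75, 9.90, 9.73, 9.53 and 9.87 in LKO and 10.06, 9.87, 10.46, 10.17 and 10.04 in KO mice. KO vehicle mice were all above WT vehicle mice, and the same held on fenofibrate. Hpx was higher by 0.56 ± 0.16 (adjusted p = 0.00862) on vehicle, a call lost with a fit of those groups alone (adjusted p = 0.0630), and without KO vehicle 1 (adjusted p = 0.0822). On fenofibrate the difference was 0.76 ± 0.14 (adjusted p = 5.78e-05). Between LKO and LWT mice on fenofibrate Hpx was higher by 0.35 ± 0.13 (adjusted p = 0.0386), a call lost with no filter on dim probes, a fit of those groups alone and slide as a block (adjusted p from 0.0632 to 0.0732), and without any 1 of 7 mice (adjusted p up to 0.123).

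Crp read 5.04, 5.27, 5.13 and 5.30 in WT, 5.34, 5.11, 4.91 and 5.09 in LWT, 5.34, 5.55, 5.67 and 5.40 in LKO and 5.89, 4.90 and 5.35 in KO mice on vehicle. On fenofibrate Crp read 4.26, 4.53, 4.31 and 4.35 in WT, 4.62, 4.84, 4.82, 4.57 and 4.24 in LWT, 5.40, 5.57, 5.43, 5.38 and 5.57 in LKO and 5.21, 5.28, 5.41, 5.64 and 5.39 in KO mice. WT and LWT mice on fenofibrate were the lowest groups, with no overlap with their vehicle groups, and KO vehicle mice spanned the WT vehicle range. Fenofibrate lowered Crp by 0.82 ± 0.15 (adjusted p = 0.000106) in WT and by 0.49 ± 0.14 (adjusted p = 0.0122) in LWT mice, the latter call lost with slide as a block (adjusted p = 0.0535), and without LWT vehicle 1 (adjusted p = 0.0552). The changes were -0.02 ± 0.14 (adjusted p = 0.996) in LKO and 0.01 ± 0.15 (adjusted p = 0.993) in KO mice. On fenofibrate Crp was higher by 1.02 ± 0.14 (adjusted p = 5.23e-07) in KO than in WT and by 0.85 ± 0.13 (adjusted p = 5.09e-06) in LKO than in LWT mice, and on vehicle its difference between KO and WT mice was 0.19 ± 0.16 (adjusted p = 0.380). The response of WT minus that of KO mice was -0.83 ± 0.21 (adjusted p = 0.00848), a call lost with a fit of those groups alone (adjusted p = 0.0502).

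Apcs read 3.25, 3.06, 3.20 and 2.96 in WT, 3.44, 3.25, 2.61 and 2.70 in LWT, 3.13, 4.88, 3.73 and 3.02 in LKO and 6.26, 3.73 and 4.36 in KO mice on vehicle. On fenofibrate Apcs read 3.23, 2.68, 2.87 and 3.10 in WT, 3.07, 2.79, 3.53, 2.97 and 2.83 in LWT, 3.15, 3.46, 2.89, 2.72 and 3.18 in LKO and 4.08, 3.71, 5.32, 4.35 and 3.21 in KO mice. KO vehicle mouse 1, at 6.26, was nearly 2 units above the next KO vehicle mouse, and LKO vehicle mouse 2 was the highest of its group. Apcs was higher in KO than in WT mice on vehicle by 1.66 ± 0.44 (adjusted p = 0.00510), a call lost with array weights and a fit of those groups alone (adjusted p from 0.0502 to 0.0781), and without KO vehicle 1 (adjusted p = 0.0900), where the change was 0.93 without that mouse. On fenofibrate it was higher by 1.16 ± 0.39 (adjusted p = 0.0162), a call lost without KO fenofibrate 3 (adjusted p = 0.0672).

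Serpina3n read 4.27, 4.37, 4.53 and 4.73 in WT, 4.87, 5.27, 5.25 and 5.08 in LWT, 5.01, 5.998, 5.32 and 5.26 in LKO and 7.32, 5.92 and 6.36 in KO mice on vehicle. On fenofibrate Serpina3n read 4.56, 3.99, 4.17 and 4.24 in WT, 5.02, 4.76, 5.47, 4.62 and 4.51 in LWT, 4.86, 4.87, 4.93, 4.86 and 4.89 in LKO and 6.02, 5.78, 6.39, 6.27 and 5.62 in KO mice. Every KO mouse was above every mouse of the other genotypes except LKO vehicle mouse 2, which exceeded some KO mice. Serpina3n was 4.16-fold higher in KO than in WT mice on vehicle (2.06 ± 0.25 (adjusted p = 3.00e-07)) and higher by 1.78 ± 0.22 (adjusted p = 1.15e-07) on fenofibrate, and neither call was lost in any alternative run or without any 1 mouse. LKO and LWT mice differed by 0.28 ± 0.23 (adjusted p = 0.620) on vehicle.

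Itih3 read 7.86, 7.79, 7.94 and 8.29 in WT, 8.10, 8.49, 8.20 and 8.06 in LWT, 7.97, 8.83, 8.28 and 8.25 in LKO and 9.59, 8.48 and 8.58 in KO mice on vehicle. On fenofibrate Itih3 read 7.94, 7.85, 7.81 and 7.92 in WT, 7.81, 7.67, 8.25, 8.03 and 7.97 in LWT, 7.79, 8.13, 7.75, 7.80 and 8.07 in LKO and 8.38, 8.37, 8.97, 8.51 and 8.14 in KO mice. KO mice were above WT mice under both treatments. The difference was 0.92 ± 0.21 (adjusted p = 0.00153) on vehicle, a call lost with a fit of those groups alone (adjusted p = 0.0715), and 0.59 ± 0.19 (adjusted p = 0.0108) on fenofibrate. Itih4 read 9.23, 8.93, 8.97 and 9.14 in WT, 8.90, 9.24, 8.98 and 8.95 in LWT, 9.04, 9.93, 9.28 and 9.39 in LKO and 10.31, 9.42 and 9.56 in KO mice on vehicle. On fenofibrate Itih4 read 8.39, 8.17, 8.18 and 8.61 in WT, 8.15, 8.08, 8.74, 8.19 and 8.52 in LWT, 8.98, 9.26, 8.96, 8.83 and 9.03 in LKO and 9.25, 9.41, 9.83, 9.42 and 9.15 in KO mice. WT and LWT mice on fenofibrate were the lowest groups, below all mice of the same genotype on vehicle. Fenofibrate lowered Itih4 by 0.73 ± 0.18 (adjusted p = 0.00447) in WT mice, a call lost with slide as a block (adjusted p = 0.0584), and by 0.68 ± 0.17 (adjusted p = 0.00591) in LWT mice. Itih4 was higher in KO than in WT mice by 0.70 ± 0.20 (adjusted p = 0.00814) on vehicle, a call lost with array weights and a fit of those groups alone (adjusted p from 0.0556 to 0.0799), and without KO vehicle 1 (adjusted p = 0.106), and by 1.07 ± 0.17 (adjusted p = 9.76e-06) on fenofibrate. In LKO against LWT mice on fenofibrate it was higher by 0.67 ± 0.16 (adjusted p = 0.00159).

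Of the 5 cytokine receptors, inhibitors and transducers, 1 (Il1rn) rose and 2 (Il6ra and Stat3) fell with fenofibrate in both WT and LWT mice. Among all genes 10.1% rose and 11.3% fell in WT mice, and 10.0% rose and 7.81% fell in LWT mice. Il1rn encodes the interleukin 1 receptor antagonist, a secreted protein that blocks interleukin 1 at its receptor Il1r1. Il6ra is the interleukin 6 receptor, Stat3 its transcription factor and Socs3 the feedback inhibitor that STAT3 induces. The Il1rn probe lies at chromosome 2, 24205094 to 24205153, plus strand (mm9), and is shown because the largest response to fenofibrate rests on it.
Il1rn probe: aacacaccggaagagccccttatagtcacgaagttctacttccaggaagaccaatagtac

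Il1rn read -3.50, -3.59, -3.52 and -3.59 in WT, -3.84, -2.77, -3.04 and -3.17 in LWT, -3.01, -3.64, -3.56 and -3.90 in LKO and -1.99, -3.81 and -2.81 in KO mice on vehicle. On fenofibrate Il1rn read -0.86, -0.58, -1.30 and -0.94 in WT, -0.28, -0.21, -0.24, -0.31 and 0.13 in LWT, -3.87, -3.56, -3.88, -3.16 and -3.90 in LKO and -3.02, -3.38, -2.22, -2.92 and -3.35 in KO mice. All 9 WT and LWT mice on fenofibrate lay above all other mice, and the other mice lay between -3.90 and -1.99. The probe was not well above background in WT vehicle 1, LKO vehicle 4, LKO fenofibrate 1 and LKO fenofibrate 3. Fenofibrate raised Il1rn 6.19-fold in WT mice (2.63 ± 0.28 (adjusted p = 5.01e-08)) and 8.12-fold in LWT mice (3.02 ± 0.27 (adjusted p = 1.89e-09)), against changes of -0.15 ± 0.27 (adjusted p = 0.989) in LKO and -0.11 ± 0.29 (adjusted p = 0.916) in KO mice. The responses differed by 3.17 ± 0.38 (adjusted p = 1.90e-06) between LWT and LKO and by 2.74 ± 0.40 (adjusted p = 2.50e-05) between WT and KO mice. On fenofibrate Il1rn was lower in LKO than in LWT mice by 3.49 ± 0.25 (adjusted p = 3.06e-12) and lower in KO than in WT mice by 2.06 ± 0.27 (adjusted p = 2.48e-07). None of these calls was lost in an alternative run or without any 1 mouse.

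Il1r1 read 2.79, 3.46, 3.76 and 4.17 in WT, 4.04, 4.51, 4.53 and 4.22 in LWT, 3.25, 4.02, 4.22 and 4.21 in LKO and 4.61, 4.99 and 5.76 in KO mice on vehicle. On fenofibrate Il1r1 read 3.81, 4.10, 3.36 and 3.68 in WT, 3.68, 3.74, 4.10, 4.27 and 3.98 in LWT, 3.71, 3.90, 3.96, 4.25 and 3.83 in LKO and 5.39, 4.46, 5.29, 5.89 and 5.17 in KO mice. All KO mice were above all WT mice. Il1r1 was higher by 1.57 ± 0.30 (adjusted p = 0.000193) on vehicle and 1.498 ± 0.26 (adjusted p = 2.79e-05) on fenofibrate, while LKO and LWT mice differed by -0.40 ± 0.28 (adjusted p = 0.517) and -0.03 ± 0.25 (adjusted p = 0.951). Il6ra read 6.37, 6.55, 6.50 and 6.20 in WT, 6.01, 6.70, 6.57 and 6.51 in LWT, 6.09, 6.67, 6.55 and 6.64 in LKO and 6.32, 6.16 and 6.66 in KO mice on vehicle. On fenofibrate Il6ra read 5.84, 5.49, 5.26 and 5.76 in WT, 6.02, 5.65, 5.49, 5.95 and 5.92 in LWT, 6.53, 6.67, 6.75, 6.44 and 6.50 in LKO and 6.42, 6.68, 6.56, 6.57 and 6.59 in KO mice. WT mice on fenofibrate lay below all WT vehicle mice, LWT mice on fenofibrate overlapped with LWT vehicle mouse 1 alone, and all LKO and KO mice on fenofibrate lay above both. Fenofibrate lowered Il6ra by 0.82 ± 0.15 (adjusted p = 0.000189) in WT and by 0.64 ± 0.14 (adjusted p = 0.00185) in LWT mice. The response of WT minus that of KO mice was -0.997 ± 0.22 (adjusted p = 0.00240), and that of LWT minus LKO mice -0.73 ± 0.20 (adjusted p = 0.0248), the latter call lost with the 4 highest mice left out (adjusted p = 0.0525), and without any 1 of LKO vehicle 1, LWT fenofibrate 3, LWT vehicle 2 and LWT vehicle 3 (adjusted p up to 0.0786). On fenofibrate Il6ra was higher in KO than in WT mice by 0.98 ± 0.14 (adjusted p = 2.07e-06) and in LKO than in LWT mice by 0.77 ± 0.13 (adjusted p = 3.77e-05).

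Stat3 read 4.62, 4.44, 4.26 and 4.55 in WT, 4.70, 4.45, 4.36 and 4.32 in LWT, 4.75, 5.18, 4.78 and 4.71 in LKO and 5.86, 5.16 and 5.28 in KO mice on vehicle. On fenofibrate Stat3 read 3.93, 3.64, 3.81 and 4.42 in WT, 3.96, 3.82, 4.27, 3.80 and 3.89 in LWT, 4.47, 4.61, 4.54, 4.39 and 4.59 in LKO and 5.40, 4.73, 5.22, 5.44 and 4.90 in KO mice. The KO groups had the highest means and WT and LWT mice on fenofibrate the lowest, and WT fenofibrate mouse 4 overlapped with the WT vehicle mice. Stat3 was higher in KO than in WT mice by 0.96 ± 0.18 (adjusted p = 0.000155) on vehicle and 1.19 ± 0.16 (adjusted p = 3.90e-07) on fenofibrate, and in LKO than in LWT mice on fenofibrate by 0.57 ± 0.15 (adjusted p = 0.00281). Fenofibrate lowered Stat3 by 0.52 ± 0.17 (adjusted p = 0.0248) in WT mice, a call lost with a fit of those groups alone, slide as a block and the authors' value table (adjusted p from 0.0619 to 0.162), and without any 1 of WT fenofibrate 1, WT fenofibrate 2, WT fenofibrate 3, WT vehicle 1 and WT vehicle 4 (adjusted p up to 0.107). In LWT mice it fell by 0.51 ± 0.16 (adjusted p = 0.0228), a call lost without any 1 of LWT fenofibrate 2, LWT fenofibrate 4 and LWT vehicle 1 (adjusted p up to 0.0866).

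Socs3 read 1.57, 1.48, 1.85 and 2.44 in WT, 1.58, 1.42, 1.58 and 1.70 in LWT, 0.79, 1.88, 2.21 and 1.43 in LKO and 3.72, 3.15 and 3.18 in KO mice on vehicle. On fenofibrate Socs3 read 1.75, 2.49, 1.64 and 2.13 in WT, 0.82, 1.36, 1.75, 1.08 and 1.25 in LWT, 0.68, 1.33, 2.005, 1.67 and 1.26 in LKO and 1.84, 2.22, 2.40, 2.97 and 2.20 in KO mice. KO vehicle mice were all above 3 and all other mice below it. Socs3 was higher in KO than in WT mice on vehicle by 1.51 ± 0.31 (adjusted p = 0.000418), whereas on fenofibrate the groups overlapped and the difference was 0.32 ± 0.27 (adjusted p = 0.356). KO mice on fenofibrate did not overlap with KO mice on vehicle, the 1 member of which that held, against 3.58% of all genes. The change was -1.02 ± 0.29 (adjusted p = 0.215), which did not pass.

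The proteins of bacterial recognition and of neutrophils are Lbp (lipopolysaccharide binding protein), its partner Cd14, and the calcium binding proteins S100a8 and S100a9, which form calprotectin. All 4 were higher in KO than in WT mice on vehicle, beside 13.9% of all genes. Cd14 read 0.16, 0.23, -0.02 and 0.59 in WT, 0.90, 0.43, 0.67 and 0.39 in LWT, 0.82, 1.27, 0.44 and 0.84 in LKO and 1.58, 3.46 and 3.62 in KO mice on vehicle. On fenofibrate Cd14 read 1.03, 0.91, 0.31 and 0.41 in WT, 0.67, 0.30, 1.32, 0.26 and 0.52 in LWT, 0.58, 0.52, 0.18, 0.74 and 0.83 in LKO and 3.50, 0.89, 3.04, 3.25 and 1.60 in KO mice. KO vehicle mice 2 and 3 and KO fenofibrate mice 1, 3 and 4 were above 3, while the other KO mice were closer to the other genotypes. Cd14 was higher in KO than in WT mice by 2.64 ± 0.45 (adjusted p = 5.35e-05) on vehicle and 1.79 ± 0.40 (adjusted p = 0.000489) on fenofibrate. KO vehicle mouse 1, the highest of its group for most members, was its lowest for Cd14.

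Lbp read 3.41, 3.53, 3.83 and 3.82 in WT, 3.41, 4.05, 3.82 and 4.17 in LWT, 3.62, 4.86, 4.24 and 4.52 in LKO and 5.54, 4.24 and 5.15 in KO mice on vehicle. On fenofibrate Lbp read 4.21, 4.44, 3.88 and 4.04 in WT, 4.52, 4.27, 4.75, 4.63 and 4.50 in LWT, 3.76, 4.16, 4.004, 4.19 and 4.34 in LKO and 4.43, 4.01, 5.11, 4.84 and 4.36 in KO mice. KO vehicle mice were above all WT vehicle mice, with KO vehicle mouse 1 the highest. Lbp was higher by 1.33 ± 0.27 (adjusted p = 0.000379), and on fenofibrate the difference was 0.40 ± 0.23 (adjusted p = 0.171). Fenofibrate raised Lbp in LWT mice by 0.67 ± 0.23 (adjusted p = 0.0447), a call lost with probes of a gene averaged, no filter on dim probes, quantile normalization and the authors' value table (adjusted p from 0.0663 to 0.428), and without any 1 of 11 mice (adjusted p up to 0.164). A second, dimmer probe of Lbp moved by -0.19 in that comparison. Between KO and WT mice on vehicle that probe moved by 0.45 ± 0.37, which was not called.

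S100a8 read -2.39, -2.76, -3.28 and -3.39 in WT, -1.74, -1.84, -3.42 and -3.56 in LWT, -1.68, -1.20, -2.28 and -2.76 in LKO and 1.38, 1.11 and -0.50 in KO mice on vehicle. On fenofibrate S100a8 read -1.23, -3.22, -2.54 and -2.33 in WT, -2.74, -2.59, 0.61, -3.14 and -1.37 in LWT, -1.69, -2.60, -3.32, -3.04 and -3.19 in LKO and -1.17, -1.30, 1.95, 0.35 and -0.78 in KO mice. S100a9 read 0.07, -0.73, -1.24 and -1.11 in WT, 0.77, 0.38, -1.47 and -1.10 in LWT, 0.40, 0.93, -0.15 and -0.22 in LKO and 3.97, 3.43 and 1.28 in KO mice on vehicle. On fenofibrate S100a9 read 0.74, -1.48, -0.26 and -0.28 in WT, -0.73, -0.59, 2.74, -1.40 and 0.66 in LWT, 0.21, -0.53, -0.78, -0.92 and -1.08 in LKO and 0.86, 0.64, 4.005, 2.23 and 0.49 in KO mice. KO vehicle mice were above all WT vehicle mice for both genes, and on fenofibrate KO mouse 3 and LWT mouse 3 were the highest of their groups for both. S100a8 was higher in KO than in WT mice by 3.62 ± 0.75 (adjusted p = 0.000517) on vehicle and 2.14 ± 0.66 (adjusted p = 0.00959) on fenofibrate. S100a9 was higher by 3.64 ± 0.82 (adjusted p = 0.00113) and 1.97 ± 0.72 (adjusted p = 0.0274), and the latter call was lost with a fit of those groups alone, slide as a block and the authors' value table (adjusted p from 0.0554 to 0.123), and without any 1 of KO fenofibrate 3, KO fenofibrate 4 and WT fenofibrate 2 (adjusted p up to 0.111).

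S100a8 and S100a9 are abundant in neutrophils, and other neutrophil markers gave mixed values. Of 12 listed neutrophil markers, 6 to 7 were well above background in each WT vehicle mouse, 7 to 11 in KO vehicle mice and 5 to 11 in KO fenofibrate mice, where mouse 3 had 11 and mice 1 and 2 had 5 each. LWT fenofibrate mouse 3 had 9. Retnlg was above background in 3 of 3 KO and 0 of 4 WT mice on vehicle, and was at least 4.89-fold higher. Mpo, Ngp and Mmp8 were each above background in 2 of 3 KO vehicle and 0 of 4 WT vehicle mice, and Mmp9 in none of either. Of the 7 markers tested, Retnlg and Prtn3 were called as higher and Elane as lower in KO mice on vehicle, beside 13.9% and 16.1% of all genes. On fenofibrate limma called none, beside 21.2% higher and 22.0% lower among all genes. The median change of the 7 on vehicle was -0.04, and the summed level of the 7 ranged from 7.48 to 7.73 in KO and from 7.53 to 7.80 in WT mice on vehicle. Signals were summed on the linear scale, so Retnlg, at a mean of -2.09 in KO vehicle mice, adds little to that sum. In whole liver, more cells of a type and more RNA per cell cannot be told apart. The part of these markers in the results for S100a8, S100a9, Lcn2 and Ltf was not tested.

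Macrophage markers also differed. Of 13 Kupffer cell and macrophage markers, 7 were higher in KO than in WT mice on vehicle, beside 13.9% of all genes. Among the 7 were Timd4 (1.32 ± 0.36), Adgre1 (1.13 ± 0.43) and C1qb (1.07 ± 0.25). On fenofibrate 1 was higher, Timd4 (0.94 ± 0.31), beside 21.2% of all genes. The summed level of the markers ranged from 7.17 to 9.08 in KO vehicle and from 6.90 to 7.43 in WT vehicle mice. It ranged from 7.34 to 7.78 in KO fenofibrate and from 7.04 to 7.73 in WT fenofibrate mice. No defining Kupffer cell marker listed (Clec4f, Cd5l, Marco) was below background in any mouse. The part of these markers in the result for Cd14, which macrophages also express, was not tested.

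Markers of lymphocytes and cholangiocytes were lower in the same comparisons. Of 8 lymphocyte markers tested, 3 were lower in KO than in WT mice on vehicle and 6 on fenofibrate, with medians of -0.71 and -1.03, and none was higher. Ms4a1, a B cell antigen, was at -1.97 ± 0.58 and -2.50 ± 0.51. Of 6 cholangiocyte markers, 1 was lower on vehicle and 4 on fenofibrate, with medians of -0.38 and -1.33, and none was higher. Of all genes, 16.1% were lower in KO than in WT mice on vehicle and 22.0% on fenofibrate. Endothelial markers went both ways on vehicle, with Stab2 (0.78) and Pecam1 (0.39) higher and Clec4g (-0.996) and Kdr (-0.38) lower in KO mice. Among the hepatocyte markers tested, only Cps1 (0.41) and Tat (0.54) were called as higher in KO mice on vehicle, and none as lower. Those not called were Asgr1 (-0.27), Ttr (-0.23), Alb (-0.12), Apob (-0.08), Cyp2e1 (-0.02), Serpina1a (-0.01), G6pc (0.04) and Pck1 (0.13). The part of these markers in the results for the acute phase genes was not tested.

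Metal binding and transport is the role of 8 members: Lcn2 (lipocalin 2, which captures bacterial siderophores), Ltf (lactoferrin), Trf (transferrin), Cp (ceruloplasmin), Hamp (hepcidin, the hormone that limits iron export), the metalloreductase Steap4 and the metallothioneins Mt1 and Mt2. Of these, 6 were higher in KO than in WT mice on vehicle and 7 on fenofibrate, beside 13.9% and 21.2% of all genes. Both counts include Ltf, tested only through KO vehicle mice, and Cp, whose second probe moved the opposite way. Lcn2 read 1.28, 1.32, 1.18 and 2.07 in WT, 2.49, 3.002, 1.95 and 2.24 in LWT, 2.74, 6.69, 3.67 and 3.74 in LKO and 9.49, 6.55 and 7.52 in KO mice on vehicle. On fenofibrate Lcn2 read 3.14, 2.21, 1.42 and 2.34 in WT, 1.83, 1.34, 4.92, 1.82 and 2.47 in LWT, 2.24, 2.91, 1.66, 2.86 and 2.61 in LKO and 4.99, 4.47, 8.48, 7.02 and 4.37 in KO mice. Each KO mouse was above every WT mouse, with KO vehicle mouse 1 at 9.49 and KO fenofibrate mouse 3 at 8.48, and LKO vehicle mouse 2 and LWT fenofibrate mouse 3 stood far above their groups. Lcn2 had the largest difference between KO and WT mice on vehicle of all members, 83.9-fold or 6.39 ± 0.88 (adjusted p = 2.53e-06). On fenofibrate it was 3.59 ± 0.78 (adjusted p = 0.000390). Lcn2 changed by -1.98 ± 0.85 (adjusted p = 0.355) with fenofibrate in KO mice and by -1.75 ± 0.78 (adjusted p = 0.847) in LKO mice, neither of them called. The difference between LKO and LWT mice on vehicle was 1.79 ± 0.82 (adjusted p = 0.253).

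Ltf read -4.47, -5.26, -6.45 and -5.63 in WT, -4.38, -4.29, -6.61 and -5.24 in LWT, -4.10, -3.78, -5.06 and -4.74 in LKO and -2.35, -2.89 and -3.84 in KO mice on vehicle. On fenofibrate Ltf read -4.37, -6.13, -5.70 and -5.18 in WT, -6.14, -5.92, -1.22, -3.34 and -4.12 in LWT, -5.55, -6.50, -4.80, -5.01 and -6.45 in LKO and -5.48, -3.68, -0.44, -2.95 and -3.85 in KO mice. Ltf was not well above background in any WT vehicle or LKO fenofibrate mouse, in 3 of 4 WT fenofibrate, LWT vehicle and LKO vehicle mice, or in 2 of 5 LWT fenofibrate mice and KO fenofibrate mouse 1. Ltf was tested only because all KO vehicle mice were above background. It was at least 2.55-fold higher in KO than in WT mice on vehicle (adjusted p = 0.0466), a call lost with array weights, no filter on dim probes, normexp background correction, quantile normalization, replicate block and the authors' value table (adjusted p from 0.0509 to 0.234), and without any 1 of 18 mice (adjusted p up to 0.137). On fenofibrate it was called as higher in KO than in WT mice (adjusted p = 0.0401), a call lost with the 4 highest mice left out, no filter on dim probes, a fit of those groups alone, slide as a block and the authors' value table (adjusted p from 0.0578 to 0.109), and without any 1 of KO fenofibrate 3, KO fenofibrate 4, WT fenofibrate 2, WT fenofibrate 3 and WT fenofibrate 4 (adjusted p up to 0.160).

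Steap4 read 1.32, 1.17, 1.49 and 1.59 in WT, 1.93, 1.75, 1.70 and 1.09 in LWT, 2.26, 2.91, 1.75 and 1.87 in LKO and 3.85, 3.33 and 3.37 in KO mice on vehicle. On fenofibrate Steap4 read 0.60, 0.07, 0.85 and 0.59 in WT, 0.55, 0.46, 1.04, -0.06 and -0.04 in LWT, 1.70, 1.56, 1.54, 1.48 and 1.41 in LKO and 3.40, 2.04, 3.44, 3.25 and 1.69 in KO mice. WT and LWT mice on fenofibrate lay below all mice of the same genotype on vehicle, and KO mice above all WT mice. Steap4 was higher in KO than in WT mice by 2.13 ± 0.34 (adjusted p = 2.03e-05) on vehicle and 2.24 ± 0.30 (adjusted p = 3.88e-07) on fenofibrate, and in LKO than in LWT mice on fenofibrate by 1.15 ± 0.28 (adjusted p = 0.00156). Fenofibrate lowered it by 1.23 ± 0.30 (adjusted p = 0.00369) in LWT mice. In WT mice Steap4 fell by 0.86 ± 0.31 (adjusted p = 0.0471), a call lost with no filter on dim probes, slide as a block and the authors' value table (adjusted p from 0.0748 to 0.299), and without any 1 of 17 mice (adjusted p up to 0.152).

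Mt1 read 7.92, 8.55, 8.83 and 8.96 in WT, 9.13, 10.01, 9.68 and 9.13 in LWT, 9.93, 10.28, 10.13 and 10.30 in LKO and 10.45, 10.27 and 10.15 in KO mice on vehicle. On fenofibrate Mt1 read 8.78, 8.46, 6.76 and 7.996 in WT, 7.98, 7.20, 9.32, 8.49 and 9.36 in LWT, 9.67, 9.92, 9.21, 9.80 and 10.15 in LKO and 10.23, 10.17, 10.42, 10.41 and 10.26 in KO mice. Mt2 read 6.95, 7.99, 8.19 and 8.72 in WT, 8.77, 9.74, 9.37 and 8.79 in LWT, 9.54, 10.06, 9.88 and 10.10 in LKO and 10.28, 10.02 and 10.08 in KO mice on vehicle. On fenofibrate Mt2 read 8.48, 7.90, 5.33 and 7.34 in WT, 7.27, 6.23, 8.71, 7.78 and 8.97 in LWT, 9.13, 9.55, 8.83, 9.59 and 9.75 in LKO and 10.15, 9.91, 10.18, 10.27 and 10.14 in KO mice. The KO groups had the highest means and the narrowest ranges for both genes, and WT and LWT mice on fenofibrate had the lowest means and the widest ranges. Mt1 was higher in KO than in WT mice by 1.72 ± 0.40 (adjusted p = 0.00140) on vehicle and 2.30 ± 0.35 (adjusted p = 3.28e-06) on fenofibrate. Mt2 was higher by 2.17 ± 0.53 (adjusted p = 0.00262) on vehicle, a call lost with array weights (adjusted p = 0.0537), and by 2.87 ± 0.47 (adjusted p = 1.09e-05) on fenofibrate. On fenofibrate LKO mice were higher than LWT mice by 1.28 ± 0.33 (adjusted p = 0.00255) for Mt1 and 1.58 ± 0.44 (adjusted p = 0.00535) for Mt2. Fenofibrate lowered Mt1 in LWT mice by 1.02 ± 0.35 (adjusted p = 0.0400), a call lost with no filter on dim probes, a fit of those groups alone, quantile normalization, slide as a block and the authors' value table (adjusted p from 0.0653 to 0.160), and without any 1 of LWT fenofibrate 1, LWT fenofibrate 2, LWT fenofibrate 4, LWT vehicle 2 and LWT vehicle 3 (adjusted p up to 0.142). Mt2 fell by 1.38 ± 0.47 (adjusted p = 0.0394), a call lost with no filter on dim probes, a fit of those groups alone, quantile normalization, slide as a block and the authors' value table (adjusted p from 0.0584 to 0.162), and without any 1 of LWT fenofibrate 1, LWT fenofibrate 2, LWT fenofibrate 4, LWT vehicle 2 and LWT vehicle 3 (adjusted p up to 0.136). A second, dimmer probe of Mt1 moved by -1.98 ± 0.34 with fenofibrate in LWT mice. On fenofibrate that probe was higher in LKO than in LWT mice by 2.19 ± 0.32.

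Cp read 7.73, 7.77, 7.74 and 7.79 in WT, 7.77, 7.88, 7.78 and 7.78 in LWT, 7.80, 8.20, 7.98 and 7.93 in LKO and 8.79, 7.90 and 8.11 in KO mice on vehicle. On fenofibrate Cp read 7.75, 7.52, 7.61 and 7.79 in WT, 7.75, 7.70, 7.97, 7.80 and 7.61 in LWT, 7.80, 8.08, 7.79, 7.90 and 8.09 in LKO and 8.06, 8.11, 8.34, 8.28 and 8.10 in KO mice. All KO mice lay above all WT mice, and KO vehicle mouse 1 was the highest. Cp was higher by 0.51 ± 0.13 (adjusted p = 0.00445) on vehicle and 0.51 ± 0.12 (adjusted p = 0.000742) on fenofibrate, from the brighter of its 2 probes. The second probe moved the opposite way, by -0.64 and -0.97. Averaging the probes gave -0.06 on vehicle and -0.23 on fenofibrate, with neither called. The call on vehicle was also lost without KO vehicle 1 (adjusted p = 0.0889).

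Trf read 10.40, 10.22, 10.39 and 10.32 in WT, 10.17, 10.34, 10.36 and 10.20 in LWT, 10.15, 10.35, 10.26 and 10.25 in LKO and 10.56, 10.18 and 10.19 in KO mice on vehicle. On fenofibrate Trf read 9.90, 9.81, 9.89 and 10.15 in WT, 9.97, 9.90, 10.05, 10.03 and 9.84 in LWT, 10.05, 10.14, 10.18, 9.90 and 10.17 in LKO and 10.27, 10.33, 10.45, 10.24 and 10.19 in KO mice. WT and LWT mice on fenofibrate were lower than all mice of their genotype on vehicle. Fenofibrate lowered Trf by 0.40 ± 0.09 (adjusted p = 0.00139) in WT and by 0.31 ± 0.08 (adjusted p = 0.00878) in LWT mice, and KO mice were higher than WT mice on fenofibrate by 0.36 ± 0.08 (adjusted p = 0.000888). The authors' value table did not give these calls, with changes of -0.05 in WT and -0.06 in LWT mice and -0.07 between KO and WT mice, and neither did the mean of both Trf probes. The response of WT minus that of KO mice was -0.38 ± 0.13 (adjusted p = 0.0492), a call lost with array weights, probes of a gene averaged, no filter on dim probes, a fit of those groups alone, slide as a block and the authors' value table (adjusted p from 0.0627 to 0.982), and without any 1 of 27 mice (adjusted p up to 0.138).

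Hamp read 8.53, 8.60, 8.32 and 9.17 in WT, 8.63, 7.74, 9.09 and 8.75 in LWT, 8.53, 8.85, 8.39 and 8.29 in LKO and 9.001, 8.73 and 8.67 in KO mice on vehicle. On fenofibrate Hamp read 8.46, 8.07, 8.42 and 8.58 in WT, 8.83, 8.40, 8.38, 8.86 and 8.17 in LWT, 8.73, 8.22, 8.75, 8.79 and 9.13 in LKO and 7.86, 8.51, 6.49, 8.78 and 8.72 in KO mice. Hamp was called in no comparison. KO fenofibrate mouse 3, the highest of its group for 22 members, was the lowest for Hamp at 6.49.

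Single mice carried part of the spread. KO vehicle mouse 1 was the highest of its group for 28 of the 31 members, LKO vehicle mouse 2 for 25, and KO fenofibrate mouse 3 and LWT fenofibrate mouse 3 for 22 each. These 4 mice were picked by their values. Leaving out the highest mice narrows the range of these same genes within their groups, so the counts without them cannot show how firm the calls are. The share of all genes called without these mice is not given here. With all 4 left out, the count of members called between KO and WT mice was 23 on vehicle and 25 on fenofibrate, that between LKO and LWT mice was 1 and 15, and fenofibrate moved 10 members in WT and 15 in LWT mice. Without KO vehicle mouse 1 alone the KO against WT changes on vehicle were 4.48 for Saa2, 4.62 for Orm3, 5.57 for Lcn2, 1.66 for Serpina3n and 3.11 for S100a9. KO vehicle mouse 2 was the lowest of its group for 23 members and LKO vehicle mouse 1 for 20.

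**Figure D3:**
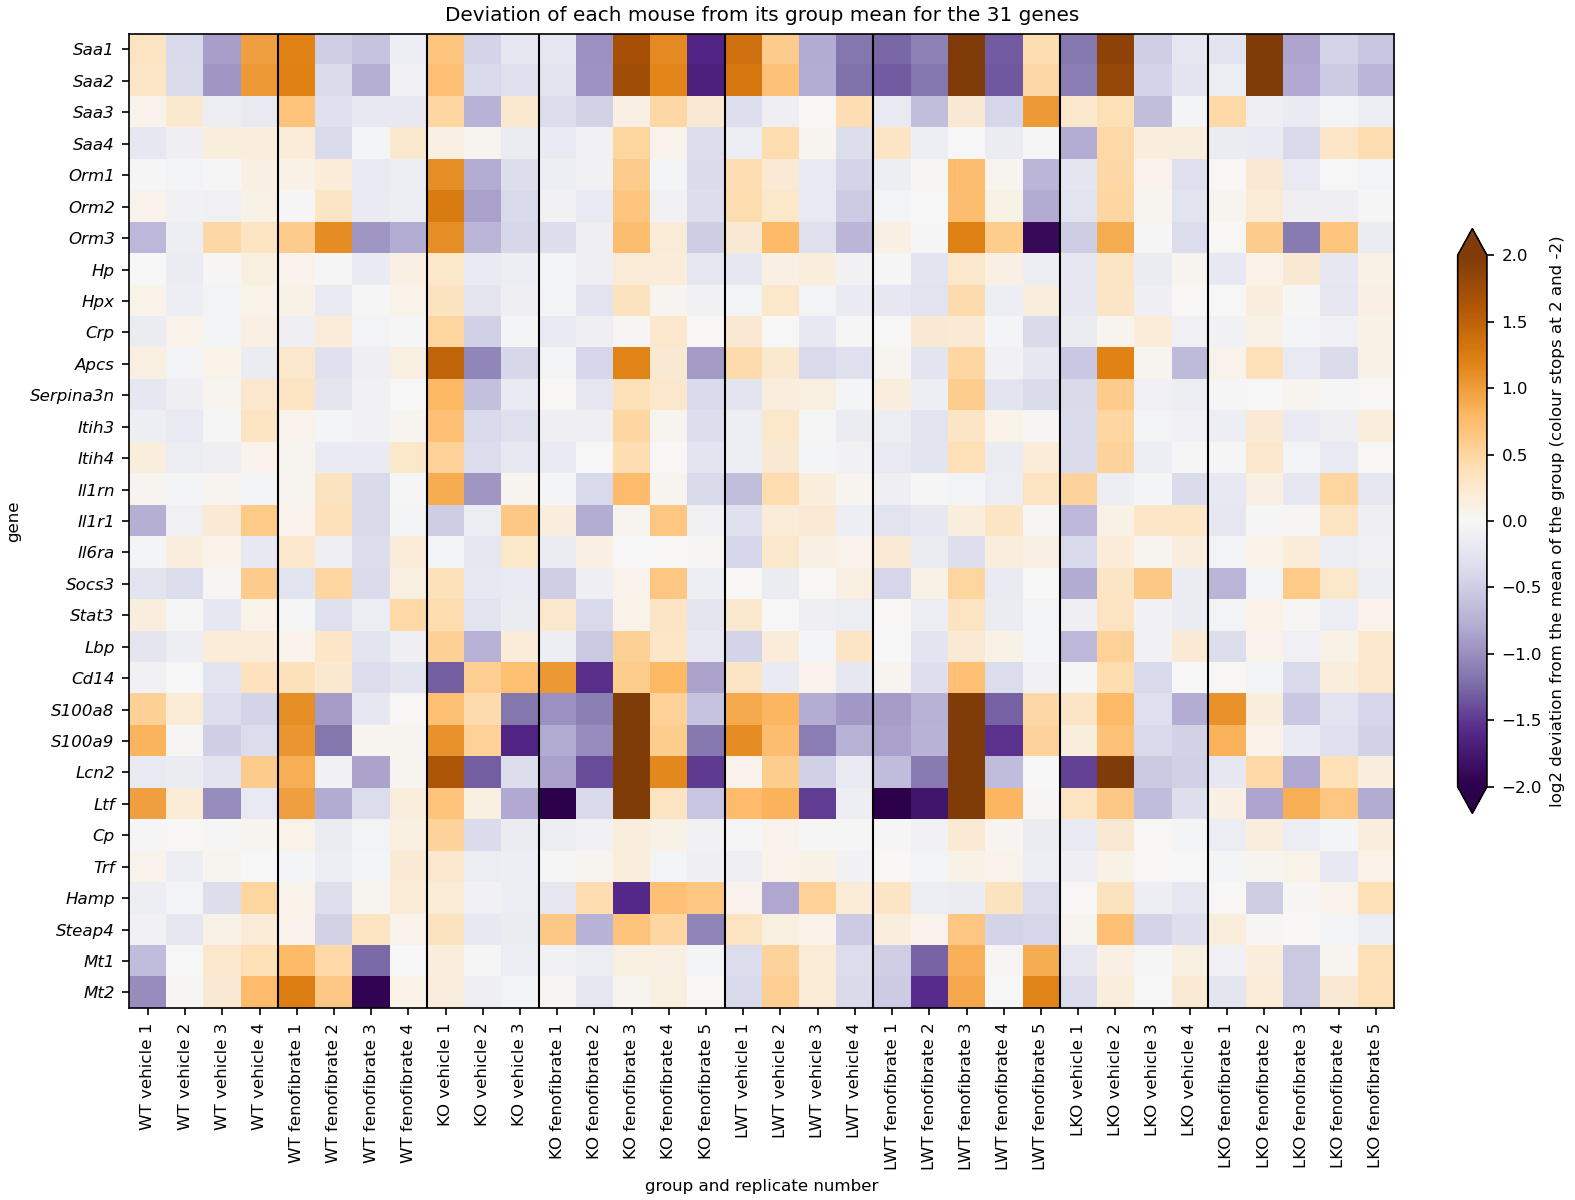
Deviation of each mouse (horizontal axis, by group) from its group mean for each of the 31 genes (vertical axis), on the log2 scale. The columns of KO vehicle 1, LKO vehicle 2, KO fenofibrate 3 and LWT fenofibrate 3 are high for most genes, 28, 25, 22 and 22 of 31 being the highest of the group.

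Some members varied together from mouse to mouse within groups. Deviations from the group mean were correlated over 34 mice for 8 pairs, with permutation p-values from 100000 resamples adjusted over the 8. Saa1 and Saa2 had a Pearson r of 0.9985 (Spearman rho 0.9939), Mt1 and Mt2 of 0.9824 (0.9734), S100a8 and S100a9 of 0.9758 (0.9615) and Saa1 and Lcn2 of 0.838 (0.8072). The adjusted permutation p was 2e-05 for each of these, from the smallest p the resamples can give, 1e-05. Leaving out the 2 mice farthest from the median gave 0.9976, 0.9744, 0.9594 and 0.8381. Within each of the 4 slides with 7 or 8 mice, r was at least 0.9902 for Saa1 and Saa2, 0.9471 for Mt1 and Mt2, 0.9389 for S100a8 and S100a9 and 0.6816 for Saa1 and Lcn2.

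Other pairs were looser. Saa1 and Orm2 had r = 0.5604 (rho 0.5242, adjusted permutation p = 0.00118 and 0.00245), with 0.4896 without the 2 farthest mice and -0.3811 to 0.8438 within slides. Saa3 and Lcn2 had r = 0.4485 (rho 0.4775, adjusted permutation p = 0.0104 and 0.00611), with 0.492 without 2 mice and -0.126 to 0.741 within slides. Both relations did not hold within every slide. Socs3 and Stat3 had r = 0.2554 (rho 0.2403) and Saa1 and Il1rn r = 0.1866 (rho 0.2578), with adjusted permutation p = 0.167 and 0.288 for r and 0.170 and 0.162 for rho. They gave 0.2438 and 0.232 without the 2 farthest mice, and -0.0296 to 0.6949 and -0.3171 to 0.5195 within slides.

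**Figure D4:**
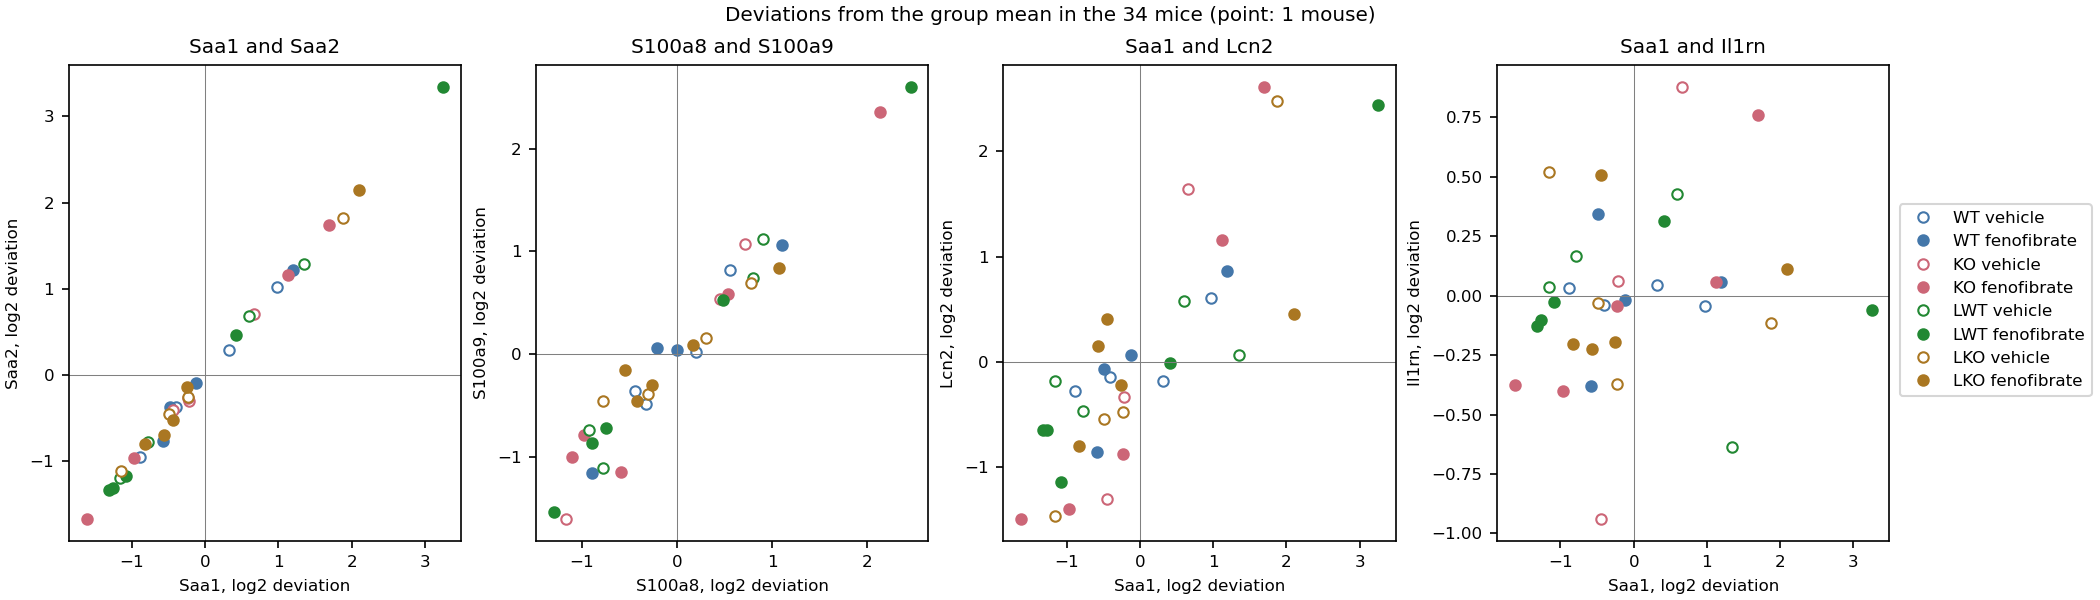
Deviation from the group mean (log2) of 1 gene against another in each of 34 mice, coloured by group, for 4 pairs. Saa1 and Saa2 lie on a line (r = 0.9985), and Saa1 and Il1rn show no such line (r = 0.1866).

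The difference in knockout effect between whole-body and liver deletion was tested directly, as KO against WT minus LKO against LWT. These 2 tests were added after the data were seen. On vehicle 7 members had a difference above 0, where 3.90% of all genes were called above 0, namely Lcn2 4.60 ± 1.21 (adjusted p = 0.0144), Orm3 2.90 ± 0.80 (adjusted p = 0.0204), Cd14 2.40 ± 0.61 (adjusted p = 0.0123), Il1r1 1.97 ± 0.41 (adjusted p = 0.00175), Serpina3n 1.78 ± 0.34 (adjusted p = 0.000796), Steap4 1.55 ± 0.46 (adjusted p = 0.0329) and Socs3 1.5004 ± 0.42 (adjusted p = 0.0227). On fenofibrate 9 had one, where 5.99% of genes were called above 0 and 6.24% below 0, namely Lcn2 3.61 ± 1.07 (adjusted p = 0.0238), Ltf 3.58 ± 1.12 (adjusted p = 0.0326), S100a8 3.06 ± 0.91 (adjusted p = 0.0240), Orm3 2.50 ± 0.71 (adjusted p = 0.0175), Cd14 1.84 ± 0.54 (adjusted p = 0.0241), Serpina3n 1.77 ± 0.30 (adjusted p = 0.000150), Il1r1 1.52 ± 0.36 (adjusted p = 0.00454), Saa4 1.46 ± 0.28 (adjusted p = 0.000635) and Il1rn 1.43 ± 0.36 (adjusted p = 0.00812). For Il1rn the difference is a smaller fall in KO against WT than in LKO against LWT mice. The value for Ltf rests on LKO mice with no level well above background. For Saa1 the difference was 2.52 ± 1.27 (adjusted p = 0.244) on vehicle and 3.10 ± 1.13 (adjusted p = 0.0716) on fenofibrate. The counts depended on single mice. On vehicle the count was 4 without KO vehicle mouse 1 and 11 without KO vehicle mouse 2, and on fenofibrate it was 14 without KO fenofibrate mouse 5 and 5 without WT fenofibrate mouse 3. Serpina3n and Il1r1 under both treatments, Lcn2 on vehicle, and Saa4 and Il1rn on fenofibrate were called in every alternative run and without any 1 mouse.

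The other differences in knockout effect were less firm. On vehicle Orm3 was lost with array weights (adjusted p = 0.0857), and without KO vehicle 1 (adjusted p = 0.0586). Socs3 was lost with array weights and the authors' value table (adjusted p from 0.0528 to 0.0638), and without any 1 of KO vehicle 1, LKO vehicle 1 and WT vehicle 2 (adjusted p up to 0.0565). Cd14 was lost without KO vehicle 3 (adjusted p = 0.0567). Steap4 was lost with array weights, no filter on dim probes and the authors' value table (adjusted p from 0.0557 to 0.0695), and without any 1 of 8 mice (adjusted p up to 0.0731). On fenofibrate Orm3 was lost without any 1 of WT fenofibrate 3 and WT fenofibrate 4 (adjusted p up to 0.0534). Cd14 was lost with the authors' value table (adjusted p = 0.0593), and without any 1 of KO fenofibrate 1, KO fenofibrate 4, LWT fenofibrate 3, WT fenofibrate 3 and WT fenofibrate 4 (adjusted p up to 0.0556). S100a8 was lost with the 4 highest mice left out, a fit of those groups alone and the authors' value table (adjusted p from 0.0513 to 0.0797), and without any 1 of KO fenofibrate 3 and WT fenofibrate 2 (adjusted p up to 0.0600). Lcn2 was lost with the authors' value table (adjusted p = 0.0597), and without any 1 of KO fenofibrate 3, LWT fenofibrate 3 and WT fenofibrate 3 (adjusted p up to 0.0588). Ltf was lost with the 4 highest mice left out, no filter on dim probes, a fit of those groups alone and the authors' value table (adjusted p from 0.0527 to 0.118), and without any 1 of 9 mice (adjusted p up to 0.0704).

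The test of whether fenofibrate acted differently by genotype called 2 members between LWT and LKO mice (Il1rn and Il6ra), where 6.72% of all genes were called. Between WT and KO mice it called 5 (Il1rn, Il6ra, Crp, Saa4 and Trf), where 11.0% of genes were called. For the first pair the count was 1 without LWT fenofibrate 3, LWT vehicle 2 or LWT vehicle 3. For the second it was 3 without any 1 of KO fenofibrate 2, KO vehicle 3, LWT vehicle 3, WT fenofibrate 2 and WT vehicle 3. Orm3, which rose with fenofibrate in WT mice, had a difference of 2.20 ± 0.78 (adjusted p = 0.0668) between WT and KO mice.

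Slide was the 1 batch the files gave, and 5 slides held the 34 arrays. Within every slide that held both groups of a comparison, each called member changed in the same direction as over all mice. That was 24 of 24 between KO and WT vehicle mice on slide 1, with 1 mouse each. It was 25 of 25 between KO and WT fenofibrate mice on slide 5, with 2 mice each. The KO mouse on slide 1 was KO vehicle mouse 1, the highest of its group for 28 members. No other slide held both KO and WT vehicle mice. The members were called with these same mice, so the agreement in direction cannot tell slide from genotype.

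Other genes of the interleukin 6 and interleukin 1 pathways were taken from a list of 52, of which 47 were tested. Between KO and WT mice on vehicle 17 were higher and 3 lower, beside 13.9% and 16.1% of all genes. The higher genes were led by Il1r2, a decoy receptor for interleukin 1, Il1b (2.57 ± 0.52) and Irak3 (2.38 ± 0.36). Il1r2 was above background in 3 of 3 KO and 0 of 4 WT mice and at least 4.93-fold higher. Il6 itself was above background in 3 of 3 KO and 0 of 4 WT mice and at least 1.36-fold higher. On fenofibrate 21 were higher and 3 lower, beside 21.2% and 22.0% of all genes. Il1r2 was then at 1.95 ± 0.41, Il1b at 1.83 ± 0.46 and Lifr, a receptor subunit for leukemia inhibitory factor, at 1.70 ± 0.19. Fenofibrate lowered 9 of the 47 and raised 1 in WT mice, and lowered 7 in LWT mice. Of all genes it lowered 11.3% and raised 10.1% in WT mice, and lowered 7.81% in LWT mice. Cish fell by 1.97 ± 0.62 and 1.71 ± 0.59, Lifr by 0.95 ± 0.20 and 1.09 ± 0.19 and Il1rap, the accessory subunit of the interleukin 1 receptor, by 0.85 ± 0.11 and 0.65 ± 0.10. Between LKO and LWT mice 1 was lower on vehicle (Myd88, -0.34 ± 0.10), beside 4.26% of all genes. On fenofibrate 14 were higher and 1 lower in LKO mice, beside 18.2% and 18.3% of all genes.

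Further plasma proteins known to rise in the acute phase numbered 18, of which 16 were tested. Of these, 8 were higher in KO than in WT mice on vehicle, beside 13.9% of all genes, and none lower. Among the 8 were Fgl1 (1.91 ± 0.41) and Fga, the fibrinogen alpha chain (1.51 ± 0.25). On fenofibrate Fga was higher by 1.58 ± 0.22 and Fgl1 by 1.11 ± 0.36. Fenofibrate lowered 7 of the 16 in WT mice and 5 in LWT mice, beside 11.3% and 7.81% of all genes, and raised none. Of 13 plasma proteins known to fall in the acute phase, 2 were higher and 2 lower in KO than in WT mice on vehicle, with Apoa4 at 3.41 ± 0.56 and Igfals at -0.67 ± 0.23, beside 13.9% higher and 16.1% lower among all genes. On fenofibrate 5 were higher in KO than in WT mice and 4 in LKO than in LWT mice, and none was lower, beside 21.2% and 18.2% higher among all genes. Apoa4 was then at 5.09 ± 0.49 and 2.41 ± 0.46. Fenofibrate lowered 4 of the 13 in WT and 4 in LWT mice, beside 11.3% and 7.81% of all genes.

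Among 18 genes of iron and copper handling, 3 were higher and 2 lower in KO than in WT mice on vehicle, near the 13.9% and 16.1% of all genes, with Slc39a14, a zinc and iron importer, at 1.19 ± 0.15 and Id1, a target of the signalling that drives Hamp, at -1.91 ± 0.38. Fenofibrate lowered Slc39a14 by 0.54 ± 0.14 in WT and by 0.81 ± 0.13 in LWT mice. Of 4 red blood cell markers tested, 1 was higher in KO than in WT mice on vehicle and 4 on fenofibrate. Of all genes, 13.9% and 21.2% were higher there. Hbb-b2 was higher in KO than in WT mice by 2.82 ± 0.41 on vehicle and by 3.60 ± 0.36 on fenofibrate. The part of that difference in the results for Hp and Hpx, which bind haemoglobin and haem, was not tested.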

How the data were processed

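The series holds 34 livers, each from an individual mouse, grouped by the genotype and treatment in the labels; the design text speaks of 36 samples, while its group sizes add up to 34. Per the file headers, intensities were deposited by the authors as background-subtracted processed signals on a linear scale from Agilent Feature Extraction 10.10.1.1, with probes placed on mm9. The authors' deposited value table, on a log2 scale, was used as an alternative only. Per the submitters' processing notes limma was also used.

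Control spots were left out, 5381 spots marked as outliers were set to missing (86 missing values in the tested genes), and spots of a probe were averaged. Each array was centred on the log2 75th percentile of its signals. Probes were named by accession (27201), symbol (3578), synonym (565) or the file (1365), members by the file's gene name (37 probes), and 22935 had no name. Probes were kept (31058) if some group had all of its arrays well above background, and the brightest probe of each gene gave 15882 genes. Group means over all 8 groups were fitted with limma 3.58.1 (R 4.3.3), two-sided, adjusted by Benjamini-Hochberg over the 15882 genes. Where all arrays of 1 group were below background, the change is "at least N-fold": the bright group's mean against, per array of the dim group, the higher of its value and the lowest signal called well above background. The number of arrays limits precision. The fit was tested on simulated data.

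Members and gene lists were chosen with earlier results of these data known. A member is given on every array where it was called in at least 1 comparison or ranged over 2 or more within a group; other listed genes are named where called, at most 4 per list and comparison, and a few are chosen from these. The result of 1 gene of these lists is not reported here. Replicate numbers were checked for pairing by the correlation of deviations from group means. Every r was over 0.1 for the vehicle groups (LKO with LWT, 0.121 to 0.289, KO with WT, 0.121 to 0.404, and WT with LWT, 0.104 to 0.235). The numbers were therefore treated as pairs in an alternative run. Some of these pairs shared a slide, among them the KO with WT pair at 0.404, so pairing and slide cannot be told apart. With the replicate block the count between KO and WT vehicle mice was 23, Ltf being lost.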

Additional observations from a re-analysis of the deposited data

Results flagged for a closer look

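In 10 of 217 sets of a gene and a group of 4 or 5 mice (4.6%), 1 mouse lay far from the others of its group by Dixon's criterion, and chance gives about 1 in 20. All 10 were high values. They were Saa1 at 8.14 and Saa2 at 7.96 in LKO fenofibrate mouse 2, where the others lay at 5.21 to 5.79 for Saa1, and Saa3 at 2.39 in LKO fenofibrate mouse 1 and at 1.78 in WT fenofibrate mouse 1. Lcn2 was at 2.07 and Orm1 at 6.996 in WT vehicle mouse 4. Orm2 was at 8.19 in KO fenofibrate mouse 3, Stat3 at 5.18 in LKO vehicle mouse 2, Cp at 7.88 in LWT vehicle mouse 2 and Il1rn at 0.13 in LWT fenofibrate mouse 5.

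The response to fenofibrate differed by genotype, by limma's test of the difference, for Il1rn (3.17 between LWT and LKO mice and 2.74 between WT and KO mice) and for Il6ra (-0.73 and -0.997). Between WT and KO mice it also differed for Saa4 (-0.95), Crp (-0.83) and Trf (-0.38). The call for Trf was lost without any 1 of 27 mice and that for Saa4 without any 1 of 11. The call for Il6ra between LWT and LKO mice was lost without any 1 of 4 mice. A fit of those groups alone ended the call for Crp.

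The knockout effect was larger for whole-body than for liver deletion on vehicle for Orm3 (2.90), Serpina3n (1.78), Il1r1 (1.97), Socs3 (1.5004), Cd14 (2.40), Lcn2 (4.60) and Steap4 (1.55). On fenofibrate the difference was 1.46 for Saa4, 2.50 for Orm3, 1.77 for Serpina3n, 1.52 for Il1r1, 1.84 for Cd14, 3.06 for S100a8, 3.61 for Lcn2 and 3.58 for Ltf. For Il1rn it was 1.43, where the fall in KO against WT mice was smaller than that in LKO against LWT mice. Without single mice or under an alternative the calls ended for Orm3, Socs3, Cd14 and Steap4 on vehicle and for Orm3, Cd14, S100a8, Lcn2 and Ltf on fenofibrate. The Ltf value rests on LKO fenofibrate mice that were all below background.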

How the results depend on the processing

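Of 104 calls of single members, 65 passed in every alternative and without any 1 mouse, and 39 were lost at least once. The number of members called was kept within 1.5 times under the alternatives run, except as follows, and the cause was not tested. The authors' value table gave 7 in LWT mice on fenofibrate, 3 for the drug response of WT minus KO mice and 5 for the knockout effect of KO minus LKO on fenofibrate. It gave correlations of 0.9970 for Saa1 and Saa2, 0.4786 for Socs3 and Stat3 and, with the sign turned, -0.0139 for Saa1 and Il1rn. Quantile normalization gave 2 between LKO and LWT mice on vehicle. Array weights gave 6 there, 2 and 1 between WT and LWT mice on vehicle and fenofibrate, 4 for LWT minus LKO, 3 for WT minus KO and 4 for the knockout effect on vehicle. No filter on dim probes, and a fit on only the groups compared, each gave 3 for WT minus KO. Slide as a block gave 12 for the knockout effect on vehicle. Leaving out the 4 mice highest for most members, added after seeing the data, gave 1 between WT and LWT mice on vehicle, 1 for LWT minus LKO and 11 for the knockout effect on vehicle. Leaving out the 2 farthest mice gave 0.9976 for Saa1 and Saa2 and 0.9594 for S100a8 and S100a9. Cp turned to -0.063 and -0.23 between KO and WT mice on vehicle and fenofibrate with probes averaged, and Trf to -0.0736 on fenofibrate in the authors' table. Leaving out 1 mouse at a time gave 6 to 9 in WT, 7 to 11 in LWT, and 0 in LKO and KO mice on fenofibrate, 1 to 2 and 10 to 13 between LKO and LWT mice on vehicle and fenofibrate, 18 to 27 and 21 to 27 between KO and WT mice, 0 between WT and LWT mice, 1 to 3 for LWT minus LKO, 3 to 6 for WT minus KO, and 4 to 11 and 5 to 14 for the knockout effect on vehicle and fenofibrate. With the replicate block the counts were 9 and 11 for fenofibrate in WT and LWT mice, 1 and 11 between LKO and LWT mice, 23 and 26 between KO and WT mice, 2 and 5 for the drug responses and 7 and 10 for the knockout effect. The block ended the calls of Ltf between KO and WT mice on vehicle (adjusted p = 0.0558) and of Saa4 for WT minus KO (adjusted p = 0.0676). Signal near background limited Ltf and Il1rn.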
